A study of Mus musculus with 8 samples.

Results

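Notch receptors and a fixed set of genes that Notch signalling is known to switch on were followed in mouse T-cell progenitors. These were control cells or cells in which Tcf7 and Lef1, the genes of the transcription factors TCF1 and LEF1, were targeted for deletion. The set holds 10 genes of the 24538 gene IDs in the deposited RNA tables, picked by name: the receptors Notch1, Notch2 and Notch3, and the target or feedback genes Dtx1, Hes1, Hes5, Hey1, Heyl, Nrarp and Gpr183. Their chromatin was followed as the open regions within each gene span and 50 kb either side, 241 of 134830 regions in all.

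All libraries came from bone marrow LSK cells, which are lineage-negative, Sca-1-positive and c-Kit-positive stem and progenitor cells, of mice carrying CreER, a Cre recombinase that works only in the presence of tamoxifen. The cells grew on OP9-DL1, a stromal line bearing the Notch ligand Delta-like 1, so both genotypes met the same ligand source. The control group was CreER+ WT and the knockout group CreER+ Tcf7-floxed, Lef1-floxed. Both received 4-OH tamoxifen on days 3 to 5 of culture, and c-Kit-positive DN1 cells (CD44-high, without lineage markers, CD4, CD8 or CD25) were taken by sorting on day 7. Each genotype had 2 RNA and 2 ATAC-seq libraries, ATAC-seq being a transposase assay of open chromatin. The labels do not say whether replicates were separate animals or cultures, so p-values measure only the spread between these libraries, which may be technical. The deletion was made in culture, after the cells had met the ligand.

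Notch receptors are single-pass membrane proteins. When a Delta-like or Jagged ligand on a neighbouring cell pulls on the receptor, ADAM proteases and then gamma-secretase cut it, and the freed intracellular domain enters the nucleus, where it joins the DNA-binding protein RBPJ and a Mastermind coactivator to turn on target genes. In the thymus this signal through Notch1 directs progenitors to the T lineage, and Tcf7 is one of the genes it turns on.

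RNA levels are given as TPM, transcripts per 1000000 transcripts of a library, a scale that corrects for gene length. The deleted genes were checked first. Tcf7 stood at 518 and 510 TPM in control and at 13.2 and 12.4 TPM in knockout. Lef1 stood at 1.66 and 1.10 TPM in control and 1.46 and 1.57 TPM in knockout, too low in both genotypes to check its deletion. Of the markers the gate selects against, Cd4 and Cd8b1 were at or below 0.426 TPM and Cd8a at or below 1.98 TPM in every library, while Il2ra, which encodes CD25, stood at 136 and 133 TPM in the CD25-negative control sort. Stromal monolayer markers summed to 1156 to 1177 TPM in control and 2265 to 2725 TPM in knockout. Of a list of 20 that includes Dll1, 18 were tested and 15 rose, while Sparc, Pdgfra and Pdgfrb were not called. Pdgfrb averaged 103 TPM in both genotypes. Dcn was at 0 in all libraries and Lum at 0 in 3 of the 4. T-lineage markers summed to 585 to 590 TPM in control and 108 to 116 TPM in knockout, and all 11 tested fell. By the same rule, 14.7% of all tested genes were called lower and 25.2% higher. Myeloid markers summed to 1439 to 1463 TPM and 2918 to 2987 TPM, and mast cell and basophil markers to 239 to 241 TPM and 472 to 477 TPM. Of 6 tested myeloid markers, 4 rose and 0 fell, with Csf1r and Lyz2 not called. Mpo, the largest of them, averaged 980 TPM in control and 2226 TPM in knockout. Of 8 tested mast cell and basophil markers, 7 rose and 1 fell. The fall was in Cpa3, which averaged 180 TPM in control and 143 TPM in knockout. The part of these shifts in the Notch gene results below was not tested. In such bulk libraries, fewer cells of a type and less RNA per cell cannot be told apart.

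Promoter sequence is shown for the 3 genes with the largest RNA falls among the set (Gpr183, Dtx1 and Notch1) and for Hes5, whose promoter holds the most matches to the RBPJ core. Each run is the 250 bases before the gene start, 5′ to 3′ on the gene's own strand, from RefSeq on GRCm38.p6, the assembly whose browser name is mm10. Capitals mark TGGGAA, the core of the RBPJ site, or its reverse complement TTCCCA. The windows are chr2:26503823-26504072, minus strand for Notch1, chr5:120711670-120711919, minus strand for Dtx1, chr14:121965194-121965443, minus strand for Gpr183 and chr4:154960673-154960922, plus strand for Hes5.
Notch1: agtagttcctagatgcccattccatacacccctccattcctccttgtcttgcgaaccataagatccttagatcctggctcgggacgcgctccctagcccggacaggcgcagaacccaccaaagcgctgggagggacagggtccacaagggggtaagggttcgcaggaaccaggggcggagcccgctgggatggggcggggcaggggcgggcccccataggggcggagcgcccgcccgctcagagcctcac
Dtx1: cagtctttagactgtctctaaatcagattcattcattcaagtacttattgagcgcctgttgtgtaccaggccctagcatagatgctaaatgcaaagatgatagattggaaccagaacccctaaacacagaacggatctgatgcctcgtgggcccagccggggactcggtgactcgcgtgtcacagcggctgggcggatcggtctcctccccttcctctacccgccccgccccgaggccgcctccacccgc
Gpr183: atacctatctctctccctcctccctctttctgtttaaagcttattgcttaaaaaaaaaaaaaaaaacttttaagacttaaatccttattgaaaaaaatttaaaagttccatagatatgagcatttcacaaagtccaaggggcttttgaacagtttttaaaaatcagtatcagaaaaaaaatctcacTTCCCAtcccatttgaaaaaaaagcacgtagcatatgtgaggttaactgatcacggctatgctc
Hes5: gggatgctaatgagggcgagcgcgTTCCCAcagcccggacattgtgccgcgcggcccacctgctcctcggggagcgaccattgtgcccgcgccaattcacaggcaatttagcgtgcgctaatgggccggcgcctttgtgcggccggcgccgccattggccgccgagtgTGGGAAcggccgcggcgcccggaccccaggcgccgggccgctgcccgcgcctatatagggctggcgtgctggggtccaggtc
The table held promoters of 7 of the 10 genes, with Hes1, Hey1 and Heyl unmatched. The RBPJ core was found in 2 of the 7, at 226 and 82 bases before the start of Hes5 (positions -226 and -82) and at position -64 of Gpr183. Of 32817 mouse promoter windows of this length, 21.6% held the core on either strand and 2.77% held it at least 2 times, as Hes5 did. The TCF/LEF core CTTTGA, searched on both strands, was in none of the 7 windows and in 13.8% of all. The 2 cores share no 6-letter word, and a missing match says only that these letters are not in this window. The Gpr183 window was 32% G or C with 2 CpG pairs, against 66% with 16 pairs for Notch1, 56.4% with 15 for Dtx1 and 71.6% with 32 for Hes5. The median of all windows was 52.4%.

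The receptors did not move together. Notch1 fell to 48.9% of its control level and Notch3 to 51.8%, while Notch2 did not pass the test. Notch1 (chromosome 2, 26457902 to 26503822, mm10), the main Notch receptor of early T cells, stood at 159 and 161 TPM in control and at 79.5 and 77.0 TPM in knockout. Both knockout libraries lay below both controls, with a gap far wider than the spread within either genotype. The log2 change was −1.02 (SE 0.047, limma adjusted p = 0.000281) on the log2(TPM + 1) scale, which understates the change of low genes.

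Notch3 (chromosome 17, 32120893 to 32166852), a receptor found on immature thymocytes and on mural cells of blood vessels, stood at 11.9 and 13.0 TPM in control and at 7.25 and 5.66 TPM in knockout. The groups did not overlap, and its log2 change was −0.86 (SE 0.16, limma adjusted p = 0.0105). The call rested on both controls: without control replicate 1 the limma adjusted p was 0.0575, and without control replicate 2 it was 0.0756, over a range of 0.00772 to 0.0756 among 12 alternatives.

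Notch2 (chromosome 3, 98013538 to 98150367), a receptor of marginal zone B cells and myeloid cells, stood at 51.6 and 52.2 TPM in control and at 54.5 and 53.0 TPM in knockout. Its log2 change was 0.05 with a 95% interval of −0.098 to 0.196 (limma adjusted p = 0.538), and its sign turned to −0.052 with median-ratio scaling and −0.034 with quantile normalization. The ratio of Notch1 to Notch2 within a library does not depend on scaling. It was 3.08 and 3.09 in control and 1.46 and 1.45 in knockout, so the receptors changed unequally in both knockout libraries. An exact two-sided permutation test of 2 against 2 libraries gave p = 0.333, the smallest this design allows. The ratio of Notch3 to Notch2 was 0.231 and 0.249 in control and 0.133 and 0.107 in knockout.

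Of the 8 members with a test, 5 fell, none rose and 3 were not called; their median log2 change was −0.69. Over all 13228 tested genes, 14.7% were called lower and 25.2% higher by the same rule (39.8% in either direction), and the median log2 change was 0.09. The split of all calls depended on scaling, with 1940 lower and 3331 higher as deposited, 2296 and 2608 after quantile normalization and 2512 and 2451 after median-ratio scaling. The member counts of 5 and 0 held under both. Both knockout libraries lay below both controls for 7 of the 8 tested members and above for 1, against 29% and 44.4% of all tested genes. Hey1 and Heyl had a mean under 1 TPM and were not tested. These genes were chosen with earlier results of these libraries known, so the count describes them and is no independent evidence of a direction.

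**Figure D1:**
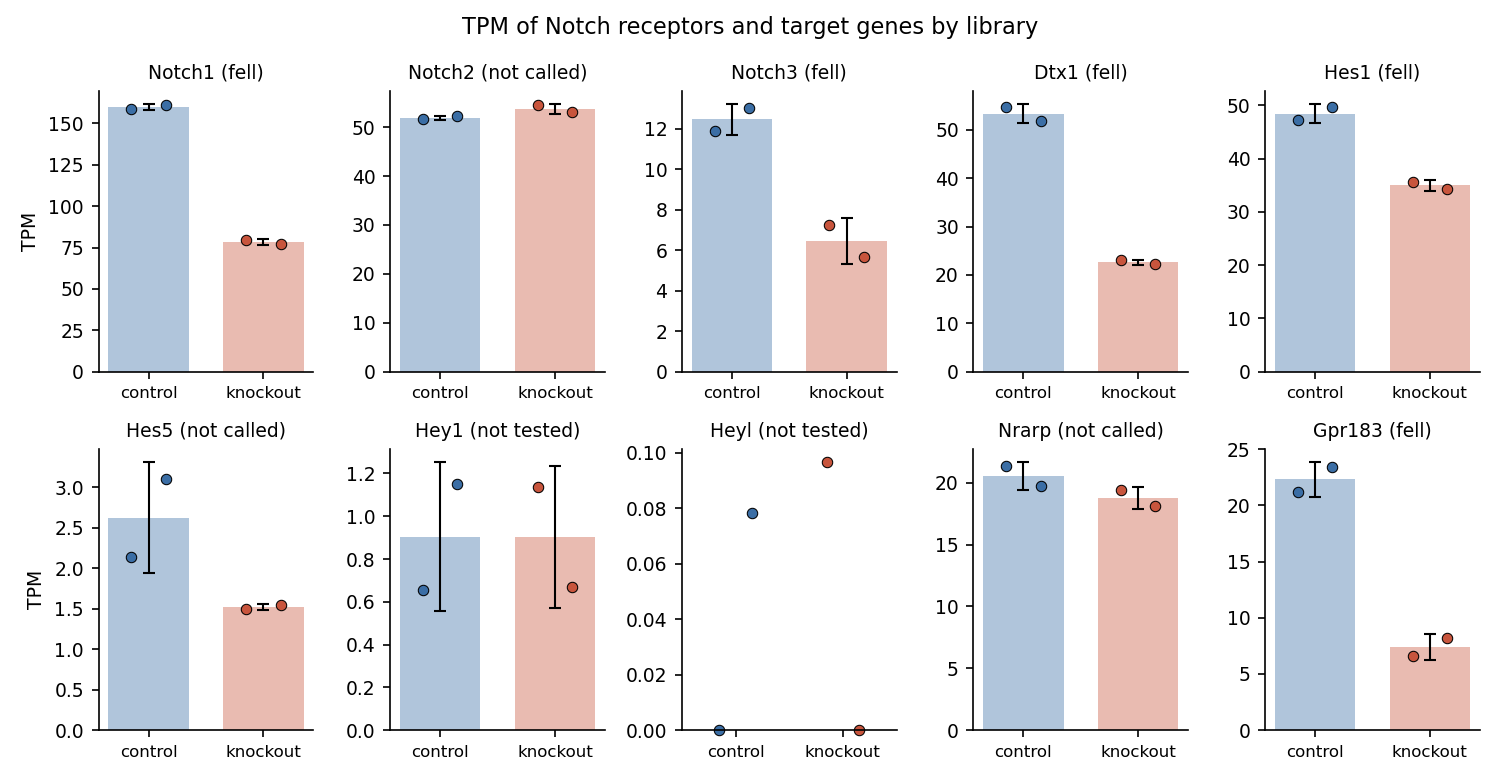
TPM of each of the 10 genes (vertical axes, each from 0) in control and knockout DN1 cells. Points are single libraries, bars are means and error bars are the SD of 2 libraries, left out for Heyl, which has libraries listed at 0; Notch1 sits at 159 and 161 TPM in control and 79.5 and 77.0 TPM in knockout, while Notch2, Nrarp, Hey1 and Heyl show near or overlapping groups.

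The target genes fell by unequal amounts. Gpr183, Dtx1 and Hes1 passed the test, whereas Nrarp and Hes5 did not. Gpr183 (chromosome 14, 121952331 to 121965193), a receptor for oxysterols that steers lymphocyte migration, stood at 21.2 and 23.4 TPM in control and at 6.60 and 8.20 TPM in knockout. It kept 33.2% of its control level, the smallest share of the tested members, with a log2 change of −1.48 (SE 0.14, limma adjusted p = 0.00139). Gpr183 lies on the other strand inside Ubac2, and strand use in counting was not given in the sources used here. Ubac2 averaged 40.7 ± 0.94 TPM in control against 35.1 ± 0.097 TPM in knockout, which missed the threshold (limma adjusted p = 0.0555).

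Dtx1 (chromosome 5, 120680264 to 120711669) encodes Deltex1, a ubiquitin ligase that binds the Notch intracellular domain and is a widely used readout of Notch activity in lymphocytes. It stood at 54.8 and 51.9 TPM in control and at 23.0 and 22.2 TPM in knockout. The groups were far apart, with 42.3% of the control level left and a log2 change of −1.20 (SE 0.073, limma adjusted p = 0.000497). Per Notch1 transcript, the Dtx1 level was 0.345 and 0.322 in control and 0.290 and 0.288 in knockout.

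Hes1 (chromosome 16, 30065357 to 30067796) encodes a basic helix-loop-helix repressor that Notch induces directly and that early thymocytes need. It stood at 47.2 and 49.7 TPM in control and at 35.6 and 34.3 TPM in knockout. This was a smaller fall than those of Notch1 and Dtx1, to 72.1% of control (log2 change −0.46, SE 0.069, limma adjusted p = 0.00544). The Hes1 level per Notch1 transcript was 0.297 and 0.308 in control and 0.448 and 0.445 in knockout, so Hes1 lost less than the receptor did in both libraries (exact two-sided permutation p = 0.333, the smallest possible).

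Nrarp (chromosome 2, 25180758 to 25183332), a small ankyrin-repeat protein that Notch induces and that dampens the Notch complex in return, stood at 21.3 and 19.8 TPM in control and at 19.4 and 18.1 TPM in knockout. The groups were separate by a margin smaller than the spread within each, and the log2 change was −0.12 with a 95% interval of −0.37 to 0.12 (limma adjusted p = 0.348). The ratio of Dtx1 to Nrarp within a library fell outside the control range, at 2.57 and 2.63 in control against 1.19 and 1.22 in knockout. The ratio of Hes1 to Nrarp was 2.21 and 2.52 in control and 1.84 and 1.89 in knockout. Each of the 7 such ratios examined was tested by exact permutation, and all gave p = 0.333 before and after adjustment over the 7. The remaining one, Gpr183 to Dtx1, was 0.388 and 0.450 in control and 0.287 and 0.370 in knockout.

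Hes5, Hey1 and Heyl, which encode further repressors of the Hes and Hey family, were low in every library. Hes5 (chromosome 4, 154960923 to 154962371) stood at 2.14 and 3.11 TPM in control and at 1.49 and 1.54 TPM in knockout. The knockout values lay below both controls, but the controls differed widely from each other, and the log2 change of −0.51 did not pass (95% interval −1.13 to 0.10, limma adjusted p = 0.153). Hey1 (chromosome 3, 8663359 to 8667038) stood at 0.657 and 1.15 TPM in control and 1.14 and 0.667 TPM in knockout, with overlapping groups. Heyl (chromosome 4, 123233556 to 123249870) was listed at 0 in control replicate 1 and knockout replicate 2, and at 0.0781 and 0.0965 TPM in the other control and knockout library. Mean read coverage per base was 1.86 to 3.19 over Hes5, 0.764 to 1.42 over Hey1 and at most 0.120 over Heyl, against 96.8 to 185 over Notch1, so differences among the low members were poorly resolved at this depth.

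The order of levels changed between genotypes. In control, Notch1 was highest at 160 ± 1.7 TPM (SD, n = 2), followed by Dtx1 at 53.4 ± 2.0 and Notch2 at 51.9 ± 0.40 TPM, whose libraries overlapped, and then by Hes1 at 48.5 ± 1.8 TPM. Gpr183 at 22.3 ± 1.5 TPM and Nrarp at 20.5 ± 1.1 TPM also overlapped, above Notch3 at 12.5 ± 0.77 TPM. In knockout, Notch1 was still highest at 78.3 ± 1.8 TPM, and Notch2 at 53.8 ± 1.0 TPM came next, ahead of Hes1 at 35.0 ± 0.98 and Dtx1 at 22.6 ± 0.60 TPM. Nrarp at 18.8 ± 0.88 TPM then stood above Gpr183 at 7.40 ± 1.1 and Notch3 at 6.46 ± 1.1 TPM, which overlapped. Hes5, Hey1 and Heyl closed the order in both genotypes.

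**Figure D2:**
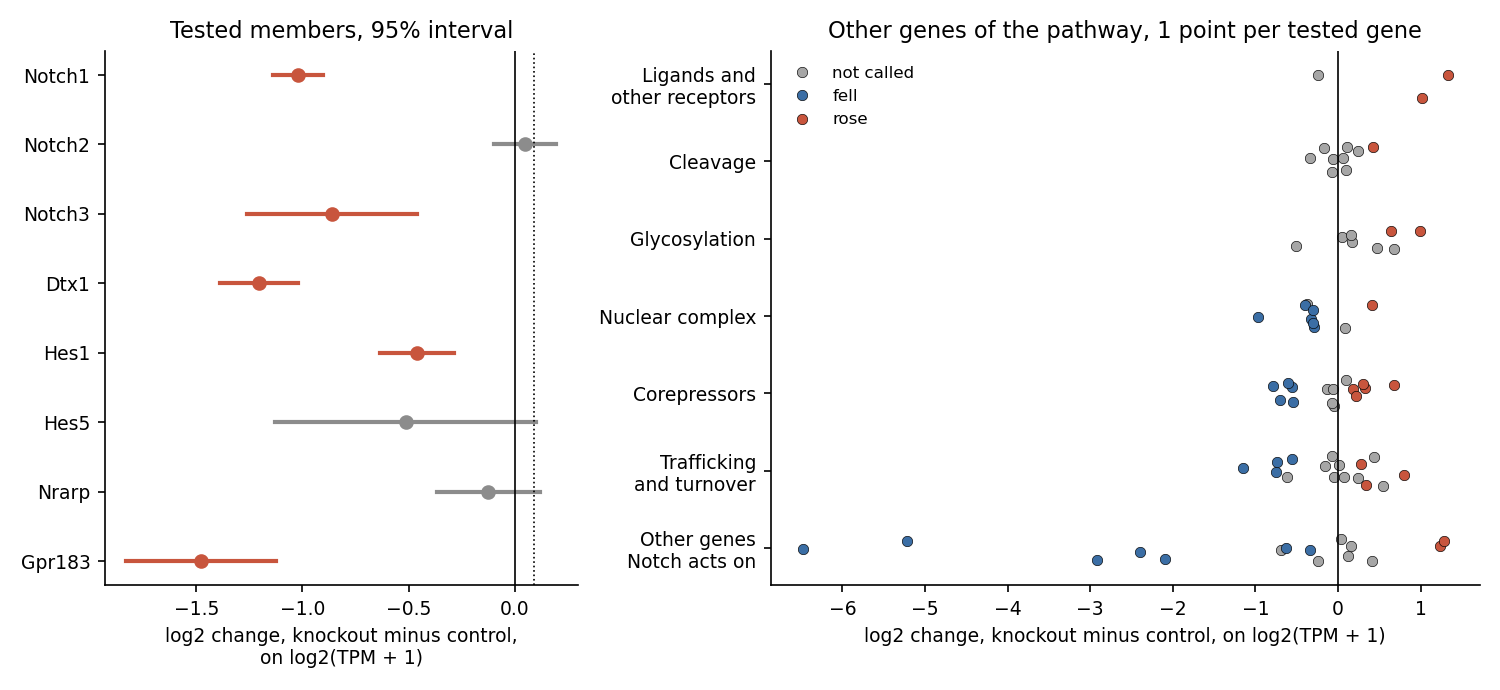
Log2 change on log2(TPM + 1), knockout minus control, of the 8 tested members with 95% intervals (left; the dotted line is the median of all tested genes, 0.09; called genes in red) and of 75 tested genes of the wider pathway by list (right; 1 point per gene, blue fell, red rose, grey not called, vertical scatter without meaning). Gpr183, Dtx1, Notch1, Notch3 and Hes1 lie left of 0 with their whole intervals, and the far-left points of the last list are Il2ra and Tcf7.

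The 3 genes whose profile over the 4 RNA libraries was nearest to that of Notch1, among 8671 with a mean of at least 10 TPM, were Tspan13, Rab44 and Lcp2. The measure was the root mean square distance of centred log2(TPM + 1) values, which came to 0.016, 0.019 and 0.020. Lcp2, which encodes the signalling adaptor SLP-76, stood at 139 and 142 TPM in control and at 69.2 and 65.4 TPM in knockout. With 4 libraries in 2 genotypes, such a profile is little more than the size of the genotype difference.

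The wider pathway held both falls and rises. Of 85 listed genes outside the members, 75 were tested: 22 fell, 16 rose and 37 were not called. Their median log2 change was −0.05, beside 14.7% of all tested genes called lower and 25.2% called higher. The split moved with scaling as that of all genes did, to 24 lower and 11 higher with quantile normalization and 27 lower and 12 higher with median-ratio scaling. Among ligands and the remaining receptor, 2 of 3 tested genes rose. Dll1, the ligand that the monolayer carries, stood at 236 and 241 TPM in control and at 671 and 534 TPM in knockout (log2 change 1.32, limma adjusted p = 0.000907). Jag1, a ligand of the Jagged class, stood at 2.47 and 4.05 TPM in control and at 8.23 and 6.74 TPM in knockout (limma adjusted p = 0.0232), a call lost without control replicate 1 (0.0857), knockout replicate 1 (0.113) or knockout replicate 2 (0.0623) and without the filter on low values (0.0556). These rises stood beside the rise of the stromal markers given above. That list includes Dll1 itself, so the Dll1 rise is not separate from it. Notch4 was between 0.403 and 0.629 TPM in all libraries, with overlapping groups, and was not tested.

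Of 9 tested genes that cut the receptor, only Adam10, the protease of the first cut after ligand binding, was called, rising from 65.2 ± 0.84 to 87.6 ± 0.28 TPM (log2 change 0.42, limma adjusted p = 0.00283). By the same rule, 39.8% of all tested genes were called in either direction. Adam17, Furin and the tested gamma-secretase genes did not pass. Of 8 genes that add sugars to the receptor, 2 rose and 6 did not pass, near the 25.2% of all tested genes called higher. Xxylt1, a xylosyltransferase, rose from 12.0 ± 1.1 to 24.8 ± 1.9 TPM, and Poglut1, which adds glucose to the receptor's repeats, rose from 14.7 ± 0.67 to 23.4 ± 0.57 TPM.

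The nuclear complex held more falls than rises, with 6 of 9 genes lower, 1 higher and a median log2 change of −0.30. Among all tested genes, 14.7% were called lower and 25.2% higher. Maml3, a Mastermind coactivator, stood at 75.4 and 74.9 TPM in control and at 38.3 and 37.8 TPM in knockout (log2 change −0.96, limma adjusted p = 0.000477). Kat2a, a histone acetyltransferase, rose from 58.8 ± 1.2 to 78.7 ± 0.11 TPM. Rbpj, the DNA-binding partner itself, stood at 42.0 and 44.0 TPM in control and at 30.2 and 34.9 TPM in knockout (log2 change −0.40, limma adjusted p = 0.0225). Its groups did not overlap, but its call was lost without control replicate 1 (0.0830), control replicate 2 (0.115) or knockout replicate 1 (0.0772), and without the intensity trend (0.0596).

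Corepressor genes were split, with 5 lower, 5 higher and 5 not called, beside 14.7% lower and 25.2% higher of all tested genes. Tle3, a Groucho corepressor that TCF factors also bind, fell from 102 ± 6.1 to 58.6 ± 1.2 TPM, and Cir1, which links RBPJ to histone deacetylases, fell from 94.6 ± 5.3 to 57.9 ± 0.83 TPM. Ctbp2 stood at 17.8 and 18.1 TPM in control and at 33.9 and 25.4 TPM in knockout, a call lost without control replicate 1 (limma adjusted p = 0.0910) or 2 (0.0868). The 16 tested trafficking and turnover genes gave 4 falls, 3 rises and 9 uncalled, beside the same shares of all genes. Neurl3, a ubiquitin ligase of the Neuralized family, fell from 52.8 ± 0.10 to 23.2 ± 0.87 TPM, and the Deltex relative Dtx3 fell from 49.5 ± 1.6 to 29.1 ± 0.94 TPM. Ccnc, the cyclin partner of the kinase that marks the Notch intracellular domain for decay, stood at 9.14 and 9.97 TPM in control and at 20.4 and 14.7 TPM in knockout, a call lost without control replicate 1 (limma adjusted p = 0.101), control replicate 2 (0.0785) or knockout replicate 1 (0.0633).

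Among other genes that Notch is known to act on, 7 fell, 2 rose and 6 were uncalled in 15 tests (median log2 change −0.34). Beside this list, 14.7% of all tested genes were called lower and 25.2% higher. This list includes the deleted Tcf7. Its other deepest falls were Il2ra, at 136 and 133 TPM in control and 0.658 and 0.393 TPM in knockout, and Bcl11b, a factor of T-cell commitment, at 9.30 and 8.16 TPM in control and 0.334 and 0.238 TPM in knockout. Several of these genes are T-lineage markers as well, so the list is not separate from the T-lineage markers that fell in the same libraries.

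Chromatin at the gene starts was listed as open in both genotypes. For 8 of the 10 genes a region held by all 4 peak lists covered the gene start, and for Notch3 and Hes5 no region did. The −log10 q values of single peaks quoted below are the authors' and rank a peak within its own list, and the lists have no common scale, so a difference between lists is not read from them. Distances are from the gene start to the centre of a region, negative upstream in the direction of transcription. Over the Notch1 start (26503491 to 26504125) the −log10 q was 139 and 149 in the control lists and 147 and 152 in the knockout lists, above 90.7% to 91.7% of the peaks of each list. Over the Hes1 start (30065059 to 30065439) it was 104 and 122 in control and 111 and 127 in knockout. The starts of Hey1 and Heyl were also held by all lists, although their RNA was under 1.2 TPM in every library; the Hey1 start stood above 77.7% to 83.0% of the peaks of each list. The nearest region to the Hes5 start in all lists was centred 0.55 kb inside the gene, and that of Notch3 was 2.51 kb inside. A region not held by all lists was slightly nearer to the Notch3 start, centred at −2429 bases.

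Few regions near the genes were held by 1 genotype alone. Of the 241 regions, 151 (62.7%) were in all 4 lists, 13 (5.39%) in both control lists alone and 19 (7.88%) in both knockout lists alone. Across the genome the shares were 59.1%, 4.79% and 6.63%, so the shares around the Notch genes were near the background. The order of the control-alone and knockout-alone counts turned with the threshold: among the 188 regions at a −log10 q of at least 10, 12 were control-alone and 10 knockout-alone. Weaker peaks were dropped before these classes were set, so these are not simply a part of the 13 and 19. Some were held by more lists without the threshold, and the counts of single genes changed too. With the threshold, the regions of 1 genotype alone near Dtx1 and Gpr183 were all control-alone, and that near Hes1 was knockout-alone. Near Notch1 they were mostly control-alone and near Notch2 mostly knockout-alone. Without the threshold, Notch1, which fell, had 3 control-alone and 2 knockout-alone regions, Dtx1 had 0 and 1, Gpr183 had 1 and 2, and Hes1 had 2 and 3. Notch3 had 3 control-alone regions and 0 knockout-alone, and Heyl had 0 and 4. Notch2 and Nrarp, which did not pass the RNA test, had 1 and 3 and 2 and 0. Hes5 had 1 and 3, and Hey1 had 0 and 1. A window also holds other genes, and the member was the nearest gene start for 113 of the 241 regions.

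**Figure D3:**
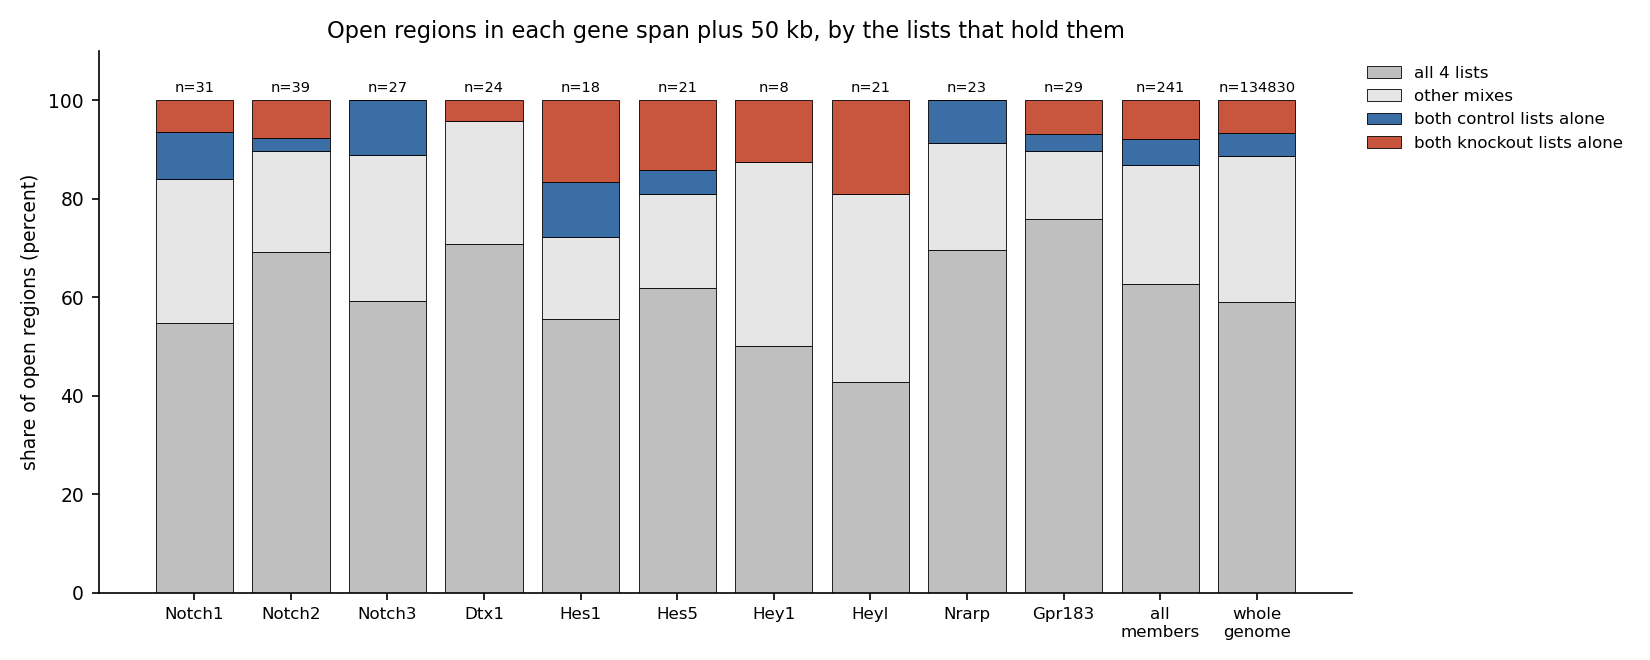
Share of open regions (percent, vertical axis) in each gene span plus 50 kb that were in all 4 peak lists, both control lists alone, both knockout lists alone or another mix of lists; the number of regions stands over each bar. The bar of all members (62.7% in all lists, 5.39% control-alone, 7.88% knockout-alone) lies near that of the whole genome (59.1%, 4.79% and 6.63%).

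Within this small group, the strongest control-alone regions lay in Notch3 and beyond Notch2. The Notch3 region (chromosome 17, 32152129 to 32152439, mm10) was centred 14.57 kb inside the gene span, with −log10 q of 34.0 and 33.0 in the control lists, above 62.0% and 60.9% of their peaks, and it was in neither knockout list. The region beyond Notch2 (chromosome 3, 98180060 to 98180400) had −log10 q of 28.0 and 36.2 in control, and lay 166.69 kb from the Notch2 start, with Adam30 the nearest gene start. Notch1 had control-alone regions 1.44 kb inside the gene (26502273 to 26502502; −log10 q 11.1 and 11.7), 2.82 kb inside (26500914 to 26501101; 11.5 and 14.9) and at −26.28 kb (5.10 and 6.48). The 2 inside Notch1 were separate from the region over its start, which all lists held. Both were also control-alone at a −log10 q of at least 10, as were the Notch2 and Notch3 regions above. The Notch1 region at −26.28 kb was not.

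The other control-alone regions lay near Notch3, Hes1, Nrarp, Hes5 and Gpr183. Notch3 had them 52.64 and 92.05 kb from its start, beyond the gene end. Hes1 had them at −28.71 and −19.19 kb, both nearer to the start of 9030404E10Rik. Nrarp had them at −21.46 kb, with −log10 q of 15.5 and 14.4, and at 14.06 kb, nearest to Tor4a. Hes5 had one at −11.18 kb and Gpr183 one at −5.50 kb, the latter with −log10 q of 8.16 and 11.8. At a −log10 q of at least 10, the Nrarp region at −21.46 kb and the Notch3 region at 52.64 kb stayed control-alone. Those of Hes1 and Gpr183, the Notch3 region at 92.05 kb and the Nrarp region at 14.06 kb did not. When peaks had to overlap by 50% of the shorter peak, the Hes5 region was not control-alone.

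Knockout-alone regions were low in their lists, and so were the control-alone regions of Notch1, above 1.27% to 36.5% of the peaks of theirs. The highest by the weaker of its lists was 49.55 kb past the Heyl start (−log10 q 14.0 and 18.2) and lay 192 bases from the start of Pabpc4. Next came a region 43.63 kb inside Notch2 (chromosome 3, 98056942 to 98057401; 16.9 and 11.5) and one 37.08 kb past the Hes5 start (10.4 and 11.4), nearest to Plch2. Notch2 had others 5.95 and 55.95 kb inside, Gpr183 had them at 3.22 and −31.86 kb, and Heyl had them at 6.08, −26.03 and −32.16 kb. Notch1 had them at 45.30 and −39.55 kb, and Hes1 at −32.95, −8.20 and 37.38 kb. Hes5 had 2 more at −22.98 and −14.36 kb, Dtx1 had its own at 37.01 kb and Hey1 at −49.64 kb. At a −log10 q of at least 10, only the Heyl, Notch2 and Hes5 regions named first stayed knockout-alone.

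**Figure D4:**
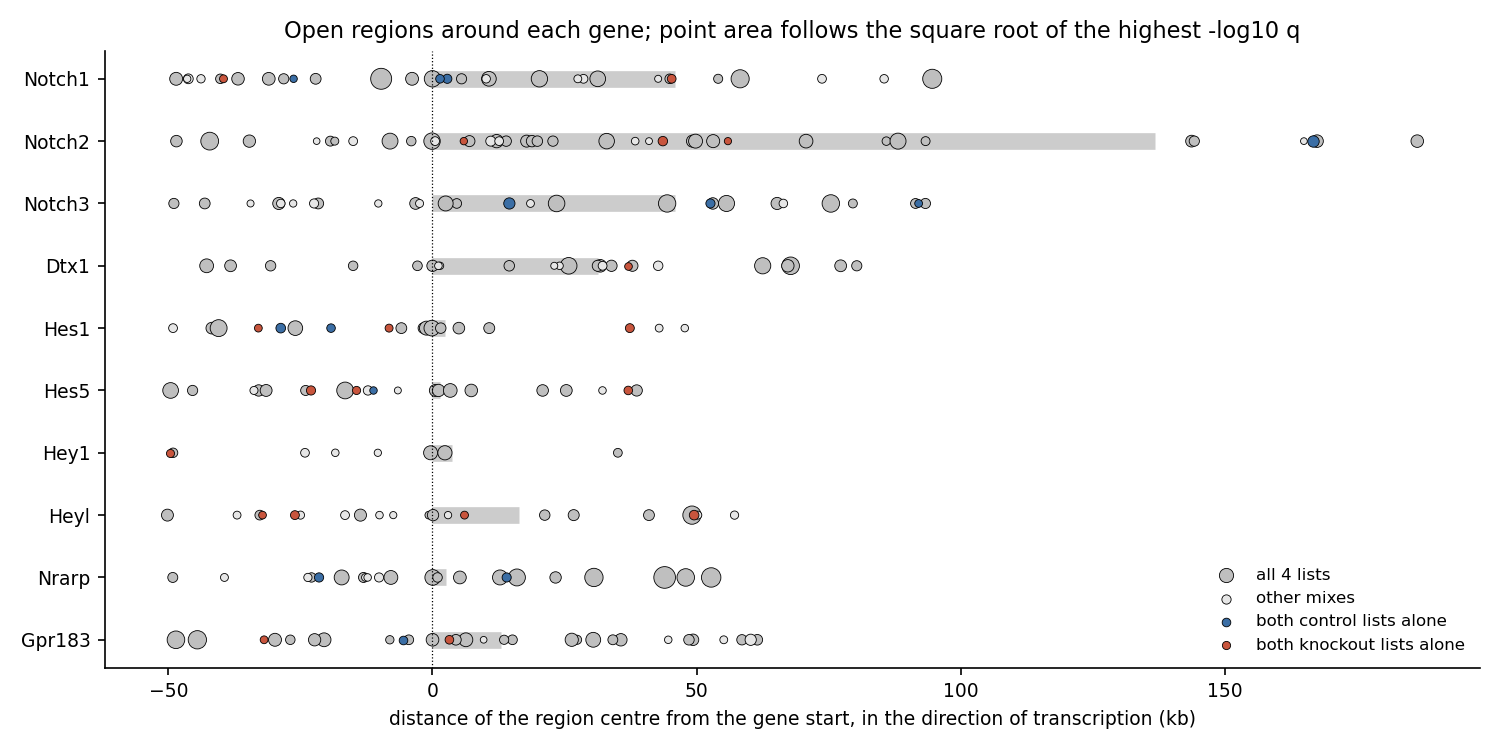
Open regions around each gene by distance of their centre from the gene start (kb, horizontal axis, positive in the direction of transcription); grey bars are gene spans, colours the class of each region, and point area follows the square root of the highest −log10 q. Blue control-alone points lie just inside Notch1 and 14.57 kb inside Notch3, while no blue or red point lies over a gene start.

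The highest −log10 q near each gene belonged to a region in all 4 lists. Near Notch1 it was a region at −9.70 kb (chromosome 2, 26513217 to 26513818), at 357 and 410 in control and 347 and 354 in knockout, above 98.9% to 99.8% of the peaks of each list. Near Nrarp it lay 43.97 kb past the start (25224191 to 25225263), at 354 and 327 in control and 376 and 468 in knockout, with Tubb4b the nearest gene start. For Hey1 it was 2.37 kb inside the gene, at 86.6 and 77.6 in control and 79.1 and 80.4 in knockout.

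The following regions were singled out after their values were seen, from the 151 held by all 4 lists, and do not stand for the rest. They are given by the −log10 q and by the share of its own list that a peak exceeded, and no change between genotypes is read from either. Inside Dtx1, 25.80 kb from the start (chromosome 5, 120685679 to 120686069), the −log10 q was 161 and 154 in the control lists, above 92.7% and 92.0% of their peaks, and 25.5 and 39.3 in the knockout lists, above 55.4% and 67.6% of theirs. At −42.74 kb from the Dtx1 start (120754217 to 120754595), nearest to Oas2, it was 70.1 and 77.0 in control (above 79.2% and 80.9%) and 20.1 and 25.6 in knockout (above 48.1% and 55.4%). Over the Gpr183 start (chromosome 14, 121965047 to 121965301), whose promoter is printed above, it was 38.8 and 54.6 in control (above 65.5% and 73.8%) and 19.0 and 23.1 in knockout (above 46.3% and 52.2%). At −5.88 kb from the Hes1 start (chromosome 16, 30059344 to 30059617) it was 6.03 and 9.27 in control (above 3.92% and 19.7%) and 24.1 and 29.1 in knockout (above 53.8% and 59.4%). With only peaks at a −log10 q of at least 10 kept, this Hes1 region was knockout-alone. At −29.80 kb from the Gpr183 start the −log10 q was 23.8 and 19.4 in control (above 51.4% and 44.8%) and 46.7 and 59.8 in knockout (above 72.0% and 77.2%). Peak lists hold no read counts, so these values are given without a test, and ATAC depth is unknown.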

How the data were processed

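RNA abundances were measured in 4 libraries and open chromatin in 4, with groups and replicate numbers taken from the sample titles. The submitters' processing notes name HISAT2 and StringTie, Bowtie2 and MACS2, and the mm10 build, without versions. The unit TPM is named in the deposited tables and each library sums to 1000000. The deposited FPKM values are the authors' values before that scaling and served as an alternative. The deposited coverage is a signal per base and was used to show depth; its most common ratio to FPKM, which follows depth, was 2.412 and 2.122 in control and 2.638 and 2.63 in knockout. In the peak lists the authors' caller gives a fold enrichment (a ratio) and −log10 p and −log10 q for each peak, per library. Thresholds, duplicate removal and read shifts were not given in the sources used here.

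TPM was summed over the entries of a gene ID. Genes with a mean of at least 1 TPM (13228 of 24538) were fitted on log2(TPM + 1) with limma 3.58.1 in R 4.3.3 (moderated variances following mean level), genotype being the only term, and called at a Benjamini-Hochberg adjusted p under 0.05 over all tested genes. The code was tested on simulated data. Peaks outside the mitochondrial chromosome (103009 to 111007 per list) that overlapped by 1 bp or more were merged into regions, and a region was placed by its centre. The members and lists were chosen with earlier results of these data known. Pathway genes named were the up to 3 largest called changes of each list with Dll1, Rbpj and Notch4. Alternatives were another pseudocount, filter, unit and scaling, a replicate block, no trend, other peak thresholds, overlaps and windows, and leaving out each library. B-lineage, dendritic cell, erythroid and progenitor markers were also counted, with 1, 5, 5 and 6 genes tested. Of these, 0, 3, 1 and 0 fell and 0, 1, 3 and 5 rose, beside 14.7% lower and 25.2% higher of all tested genes. The other B-lineage markers had a mean under 1 TPM, so that lineage was barely tested. No genome was used, so regions are given by position and not as exon or intron.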

Additional observations from a re-analysis of the deposited data

How the results depend on the processing

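Under the 8 alternatives that kept all libraries, the member counts stayed at 5 lower and 0 higher, and leaving out 1 library at a time gave 4 to 5 lower and 0 higher. Among 95 single values of members, 91 kept their direction and side of the threshold; the exceptions were Notch3 without either control (given above) and Notch2, whose log2 change turned to −0.034 with quantile normalization and to −0.052 with median-ratio scaling, uncalled in each. Leaving out 1 library gave 16 to 19 pathway genes lower and 9 to 12 higher, and 1088 to 1450 lower and 2005 to 2242 higher over all genes, with fewer samples in each fit. Of 203 values of named pathway genes, 190 kept direction and call. Replicate numbers are shared by both genotypes, but deviations of same-numbered libraries were not related (correlation across genes 0.0043), so they were not taken as pairs; with the replicate block, 5 members were lower and 0 higher, 22 pathway genes lower and 15 higher, and 1798 genes lower and 3072 higher. At a −log10 q of at least 10, 12 of 188 regions near members were control-alone and 10 knockout-alone, beside 5.36% and 5.95% of all regions, so the order of 13 and 19 turned. With 10 kb flanks there were 106 regions, 71 in all lists, 5 control-alone and 8 knockout-alone, a smaller window by construction. Leaving out 1 ATAC library gave 14 to 23 control-alone and 23 to 30 knockout-alone of 231 to 237 regions, while the shares of all regions rose to 6.75% to 8.54% and 9.47% to 12.8%, since fewer lists then define a class; the highest counts came without control replicate 1 and without knockout replicate 1. Depth limits what can be said of Hes5, Hey1 and Heyl.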
